A study of Mus musculus with 2 samples.

Results

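The genes described here handle metals in the granule layer of the mouse cerebellum: the metallothioneins Mt1, Mt2 and Mt3, the ferritin chains Fth1 and Ftl1, transferrin (Trf), its receptor (Tfrc), the iron exporter ferroportin (Slc40a1), and the iron regulatory proteins Aco1 and Ireb2. They were taken by symbol, all 10 were matched to a row, and they are 10 of the 43346 Ensembl gene rows in the tables. The 2 libraries were made with a Smart-seq protocol, which copies and amplifies polyadenylated RNA, from areas of the granule layer captured by laser from adult male wild-type tissue. The labels name the strain as B6NCrl in one field and C57Bl6 in others, give an age of 8 months, and record 18000 square microns of tissue and 50 cells as the input of each library. They name no allele, agent or treatment. Both libraries carry 1 donor label and the biological replicate numbers 1 and 2, called area 1 and area 2 below, so whether the spread holds any difference between animals is not known. They form 1 group with no contrast between conditions, and levels are the mean ± SD of both areas (n = 2) unless an area is named. Area 1 held 19962271 reads in annotated genes and area 2 held 19261911, as estimated (expected) counts.

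Metallothioneins are small cysteine-rich proteins that bind zinc and copper, and the transcription factor Mtf1 induces Mt1 and Mt2 when zinc rises. Ferritin is a hollow shell of heavy and light chains that stores iron, transferrin carries iron in body fluids, its receptor takes the loaded protein into cells, and ferroportin lets iron out. When iron is scarce, the proteins encoded by Aco1 and Ireb2 bind a hairpin in the mRNA, the iron responsive element, which blocks translation when it lies in the 5' UTR and protects the mRNA from decay when it lies in the 3' UTR. In brain, Mt1 and Mt2 are best known from astrocytes, Mt3 from neurons and astrocytes, and transferrin mRNA from oligodendrocytes.

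The hairpins are shown first, because they are what the mRNAs of iron storage, uptake and export have in common here. The motif searched was CNNNNNCAGTGNNNNNN on the sense strand of the transcript with most reads of each gene, and the 5 bases after the first C had to pair, G with T allowed, with the last 5. It was found in 4 of the 10 genes and at 7 sites. At least 1 match was found in 1.34% of the 21901 protein-coding genes of GENCODE M21, in any of their transcripts and over their whole length. The pattern follows the known element and these genes were chosen for metal handling. The share over all genes is therefore background only and no test of enrichment. The unpaired C and the 6 bases of the loop are in capitals, with transcript positions on GRCm38.
Fth1, 5' UTR, chr19:9982732-9982760, plus strand: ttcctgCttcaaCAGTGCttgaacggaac
Ftl1, 5' UTR, chr7:45459779-45459807, minus strand: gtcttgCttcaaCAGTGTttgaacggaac
Slc40a1, 5' UTR, chr1:45925465-45925493, minus strand: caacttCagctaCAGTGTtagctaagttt
Tfrc, 3' UTR, chr16:32631219-32631247, plus strand: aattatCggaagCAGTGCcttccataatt
Tfrc, 3' UTR, chr16:32631598-32631626, plus strand: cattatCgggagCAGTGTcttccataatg
Tfrc, 3' UTR, chr16:32631663-32631691, plus strand: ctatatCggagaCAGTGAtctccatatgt
Tfrc, 3' UTR, chr16:32631710-32631738, plus strand: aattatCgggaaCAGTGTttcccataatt
The windows of the ferritin chains were identical at 26 of 29 bases, whereas that of Slc40a1 shared 13 of 29 bases with each of them. Among the Tfrc sites the identity ran from 18 to 25 of 29 bases. The pattern was not found in the searched transcripts of the other 6 genes, which says only that these letters are not there. Among other mRNAs listed as carrying such an element, Alas2, which encodes the haem synthesis enzyme of red cell precursors, held a match in 2 of 2 transcripts.

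All 10 genes were detected in both areas, where detection means a TPM (transcripts per 1e6, a level corrected for length) of at least 1 and at least 5 reads. Of all 21474 protein-coding genes, 50.4% were. Their median level was 253.65 TPM, against 14.3 TPM over the 10817 protein-coding genes detected in both areas. The levels ran from 1903 ± 110 TPM for Mt1 to 2.065 ± 0.54 TPM for Slc40a1, and together the genes held 0.538% of the TPM of area 1 and 0.579% of that of area 2. The order was Mt1, Fth1, Ftl1, Mt2, Mt3, Trf, Tfrc, Ireb2, Aco1 and Slc40a1. In 7 of the 9 neighbouring pairs the values of the 2 areas did not overlap. Mt1 and Fth1 overlapped, as did Mt2 and Mt3, so within each of these pairs no order is given. From reads per 1e6 with no length correction, Fth1 came before Mt1. Below Mt3 the order was then Ireb2, Tfrc, Trf, Aco1 and Slc40a1, and the values of Tfrc and Trf overlapped.

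**Figure D1:**
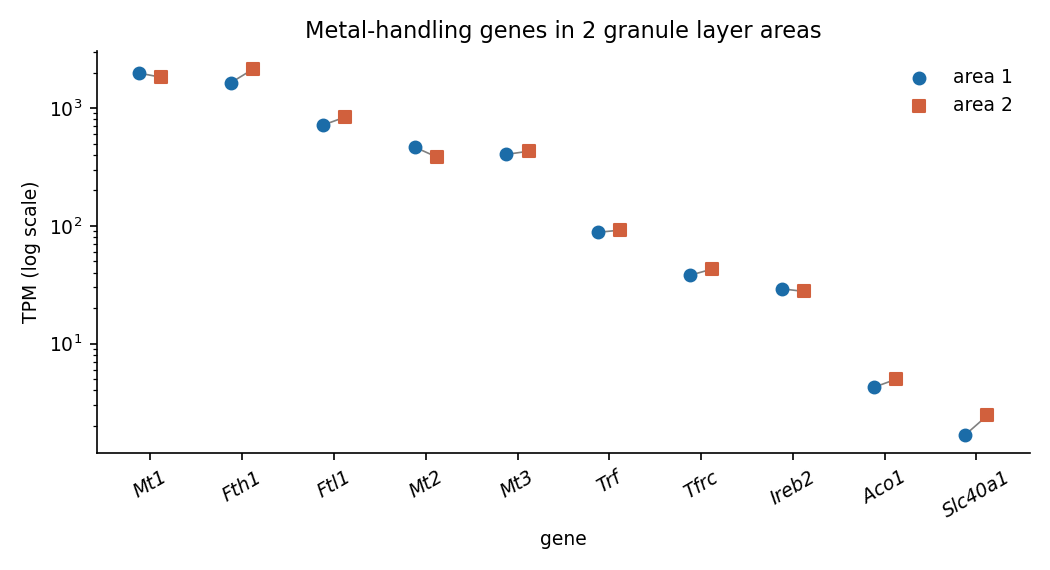
Level of each gene in TPM (vertical axis, log scale) in area 1 (circles) and area 2 (squares), with a line joining the areas and genes in order of their mean. Mt1 and Fth1 lie together (means 1903 and 1898 TPM), as do Mt2 and Mt3 (425 and 417 TPM), and Slc40a1 is lowest at 1.68 and 2.45 TPM.

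The metallothioneins were dominated by Mt1 (ENSMUSG00000031765.7, chr8:94179082-94180327), which encodes a form found in many tissues. It stood at 1980 TPM in area 1 and 1825 in area 2, on 14965 and 13407 reads, and ranked 22 and 27 among protein-coding genes. Mt2 (ENSMUSG00000031762.6, chr8:94172664-94173568), its close neighbour and partner in induction, was at 466 TPM in area 1 and 384 in area 2. Mt3 (ENSMUSG00000031760.8, chr8:94152607-94154146), the form known from brain, was at 404 and 430 TPM. The ratio of Mt1 to Mt2 in TPM was 4.25 in area 1 and 4.75 in area 2, or 4.50 ± 0.35. Mt2 exceeded Mt3 by a ratio of 1.15 in area 1 and fell under it at 0.893 in area 2, so their order differed between the areas. Mt4, the family member of squamous epithelia, had 0 counts in both libraries, which allows up to 3 counts, or 0.150 and 0.156 reads per 1e6. No other gene matched Mt1, Mt2 or Mt3 closely enough to share reads (at least 90% identity over at least 200 bases), and the deposited standard deviation of the count for reads that could move to another gene was 0 for each.

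The metal response element, the site that Mtf1 binds, was searched as TGCACNC and TGCGCNC on both strands of the RefSeq promoter windows (GRCm38.p6, 250 bases before to 50 after an annotated start). A match on 1 strand can overlap a match on the other. Mt2 held 4 matches, Mt1 held 3 and Mt3 held 1, while 25.7% of the 32851 windows held at least 1, 1.97% at least 3 and 0.517% at least 4. The 3 Mt1 matches, the Mt2 match nearest before its annotated start and the Mt3 match are printed with the match in capitals, on the plus strand, to show what was counted.
Mt1, chr8:94179056-94179082: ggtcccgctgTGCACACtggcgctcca
Mt1, chr8:94179081-94179107: cagggagctcTGCACTCcgcccgaaaa
Mt1, chr8:94179099-94179125: gcccgaaaagTGCGCTCggctctgcca
Mt2, chr8:94172558-94172584: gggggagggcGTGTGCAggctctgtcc
Mt3, chr8:94152624-94152650: gggacagcagTGCACACacacggagag
Of these, the last 2 Mt1 matches and the Mt3 match lie after the annotated start of the window. The first of the 2 Tfrc windows held 2 overlapping matches, beside 7.11% of windows with at least 2, and the other held 0. Aco1 held 1 match, and no match was found in the windows of Fth1, Ftl1 and Ireb2. Windows of 8 of the genes were searched, and those of Trf and Slc40a1 were not. A match is a string of letters and not a measured binding site.

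The ferritin chains together held 2675 ± 438 TPM and the metallothioneins 2745 ± 149 TPM, a difference smaller than either SD. In area 1 the ferritin chains held 2366 TPM and the metallothioneins 2851. In area 2 the values were 2985 and 2639, so the order of the families differed between the areas. Fth1 (ENSMUSG00000024661.6, chr19:9980598-9985098), the heavy chain that oxidizes iron on entry, stood at 1649 TPM in area 1 and 2146 in area 2 and ranked 28 and 21 among protein-coding genes. Ftl1 (ENSMUSG00000050708.10, chr7:45457944-45459884), the light chain that helps to lay down the mineral core, stood at 717 and 838 TPM. Both chains were higher in area 2. The ratio of heavy to light chain was 2.30 in area 1 and 2.56 in area 2, or 2.43 ± 0.18. Ftmt, the mitochondrial ferritin, had 0 counts in both areas. Ftl1 has 7 close copies elsewhere in the genome, of which 4 were given reads or part of a read, and the closest, Ftl1-ps1, was 99.6% identical over 910 bases. These copies held 112 and 159 reads, or 1.06% and 1.32% of the Ftl1 count, and the single close copy of Fth1 held 0.101% and 0.102% of its count. Reads could be split among such copies, so the Ftl1 level is uncertain, and the deposited standard deviation of its count was 20.5 and 23.5 reads.

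The iron carrier and its receptor were lower. Trf (ENSMUSG00000032554.11, chr9:103204001-103230444) was at 88.1 TPM in area 1 and 92.0 in area 2, on 1940 and 2128 reads. Tfrc (ENSMUSG00000022797.11, chr16:32608920-32632794) was at 38.0 and 42.9 TPM. Slc40a1 (ENSMUSG00000025993.6, chr1:45908068-45926523), the only known cellular iron exporter, was at 1.68 and 2.45 TPM on 98 and 129 reads, and its rank among protein-coding genes was 10464 and 9735. The uptake receptor thus exceeded the exporter 22.6 times in area 1 and 17.5 times in area 2 in TPM. The authors' posterior mean estimate put Slc40a1 higher, at 2.95 and 4.04 TPM, and the mean ratio of Tfrc to Slc40a1 at 11.8 in place of 20.1, so these values depend on the estimator used.

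The iron regulatory proteins differed in level. Ireb2 (ENSMUSG00000032293.7, chr9:54863789-54912530), which is controlled through its own degradation, was at 29.2 TPM in area 1 and 27.7 in area 2. Aco1 (ENSMUSG00000028405.9, chr4:40143081-40198338), which becomes a cytosolic aconitase when it carries an iron-sulfur cluster, was at 4.24 and 4.96 TPM on 184 and 236 reads. Ireb2 exceeded Aco1 6.88 times in area 1 and 5.59 times in area 2, or 6.24 times on average. The average was 9.47 from the transcript with most reads and 13.3 from read counts with no length correction.

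For part of these genes the TPM rests on short annotated transcripts. Mt1, Mt2, Mt3, Fth1 and Ireb2 have 1 transcript each in the deposited tables. The coding transcript of Trf with most reads, of 2571 bases, held 84.3% and 87.7% of the Trf reads but 43.8% and 49.3% of its TPM. A retained-intron transcript of Trf, of 433 bases, held 13.6% and 12.1% of the reads and 52.3% and 50.3% of the TPM. The coding transcript alone stood at 38.6 TPM in area 1 and 45.3 in area 2. For Tfrc the transcript with most reads held 88.2% and 86.2% of the reads and 60.5% and 66.0% of the TPM, at 22.99 and 28.32 TPM. For Aco1 it held 90.6% and 93.9% of the reads and 61.6% and 72.0% of the TPM. With the transcript with most reads alone for each gene, Tfrc overlapped Ireb2, and 6 of the 9 neighbouring pairs stayed apart. The Trf to Tfrc ratio was 2.32 in area 1 and 2.14 in area 2 from gene TPM, 1.64 on average from the transcript with most reads, and 0.859 from read counts with no length correction.

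**Figure D2:**
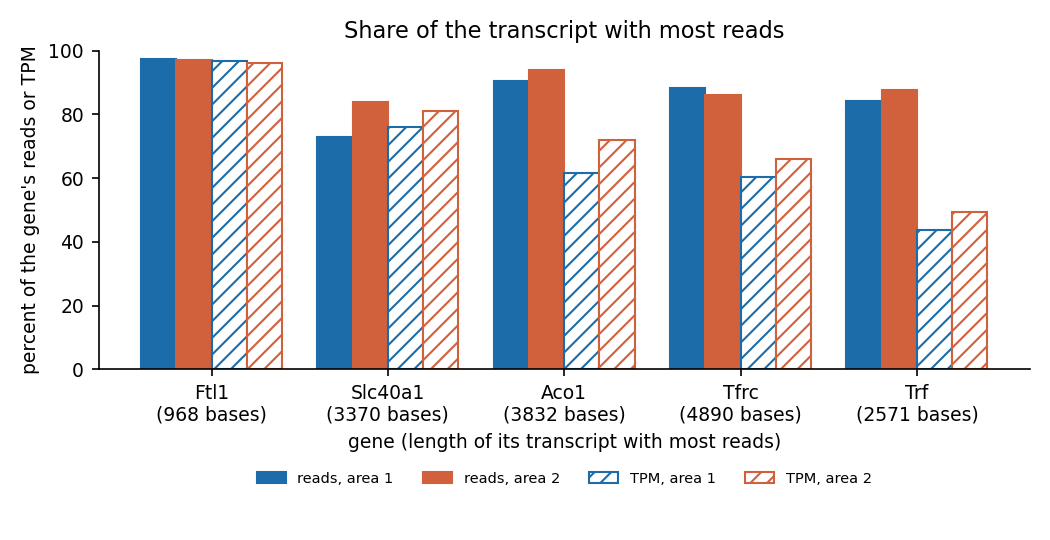
Share of the gene's reads and of its TPM, in percent, held by the transcript with most reads, for the 5 genes with more than 1 transcript and for both areas. For Trf the share falls from 84.3% and 87.7% of reads to 43.8% and 49.3% of TPM, whereas for Ftl1 it is 97.5% and 97.0% of reads and 96.8% and 96.1% of TPM.

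Between the areas, most of the iron genes took a larger share of the reads in area 2, and Mt1 and Mt2 took a larger share in area 1. Each gene's rounded count was compared with the library totals by a two-sided exact binomial test with Benjamini-Hochberg adjustment over 16636 genes, which compares these 2 libraries and not conditions. By this test 9 of the 10 genes differed beyond counting error at an adjusted p of 0.05, beside 47.6% of all genes tested. Of them 7 were higher in area 2, beside 23.7% of genes, and 2 in area 1, beside 24.0%. The test calls smaller differences at higher read counts. These genes had a median of 253.65 TPM, against 14.3 TPM over protein-coding genes detected in both areas. The shares called therefore do not compare like with like. Fth1 showed the smallest p, with a log2 ratio of read shares of 0.39 (95% exact interval 0.37 to 0.42). The log2 ratio was 0.24 for Ftl1, 0.34 for Tfrc and 0.18 for Trf. It was 0.45 for Slc40a1 (0.06 to 0.84) and 0.41 for Aco1 (0.13 to 0.70), whose low counts leave wide intervals. It was -0.11 for Mt1, -0.27 for Mt2 and 0.10 for Mt3. Ireb2 did not pass, at -0.06 (-0.14 to 0.01). On the log2 scale of TPM the ratio was smaller for Tfrc (0.17), Trf (0.06) and Aco1 (0.23), and larger for Slc40a1 (0.54). With mitochondrial and globin genes out of the library totals, the calls of Mt3 and Slc40a1 were lost (adjusted p = 0.0636 and 0.0579, exact binomial test), and that of Slc40a1 was also lost with no filter on low counts (adjusted p = 0.0524, exact binomial test).

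The sizes were set beside those of all genes. The median of the absolute log2 ratio was 0.25 over the 10 genes and 0.20 over the 12523 genes detected in both areas, and 24.5% of those genes lay at least as far apart as Fth1. With all counts divided by 10, a setting that allows for reads that are copies of the same molecule, Fth1 and Ftl1 alone passed the test, beside 0.703% of genes. Reads from Smart-seq without molecular identifiers are not independent molecules, so intervals and floors here cover counting error only. In a bulk area, fewer cells of a type and less RNA per cell cannot be told apart.

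**Figure D3:**
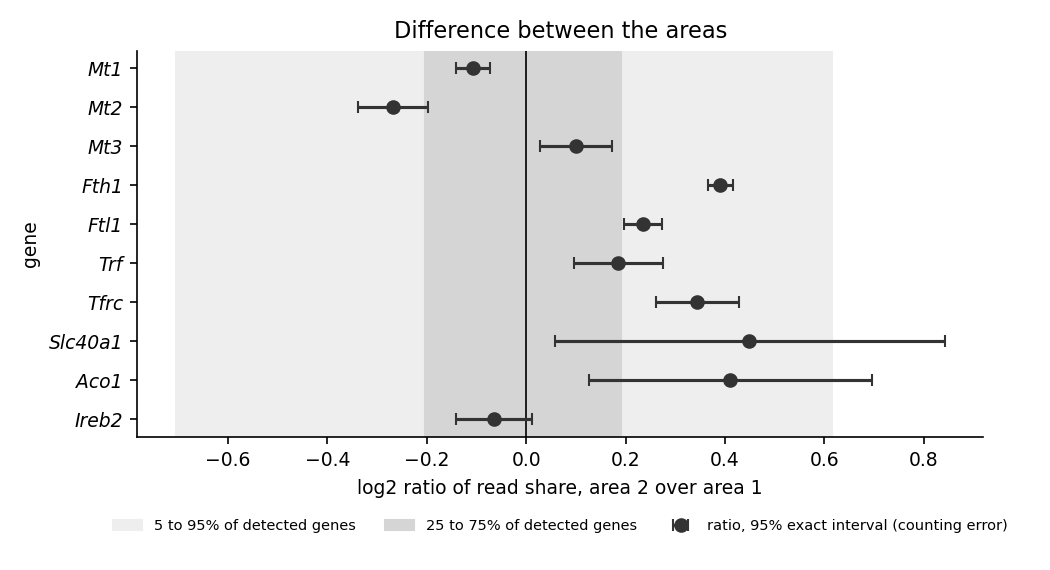
Log2 ratio of the share of reads, area 2 over area 1, for each gene with its 95% exact interval (counting error only). The inner and outer grey bands hold the ranges from 25% to 75% and from 5% to 95% of the 12523 genes detected in both areas, and all 10 genes lie inside the outer band, which runs from -0.70 to 0.62.

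Markers of other cell types also differed between the areas. All 12 granule neuron markers were detected in both, with a summed level of 3223 TPM in area 1 and 3499 in area 2, led by Gabra6 (925 and 1086 TPM), a receptor subunit of these neurons. The 12 oligodendrocyte markers, at medians of 20.6 and 23.4 TPM, summed to 706 TPM in area 1 and 967 in area 2. Of them 10 were higher in area 2, beside 23.7% of all genes tested. Mbp (249 and 312 TPM), which encodes a myelin protein, was among the 10. Trf, known from this cell type, was higher in area 2 by 0.18 (log2 ratio of read shares), and by 0.06 on the log2 scale of TPM. The 12 markers of Bergmann glia and astrocytes summed to 769 and 746 TPM. Of the 11 tested, 6 were higher in area 1 and 1 in area 2, beside 24.0% and 23.7% of all genes. Mt1 and Mt2 were higher in area 1, whereas Mt3, known from neurons and astrocytes, was higher in area 2. The 7 red blood cell markers summed to 5040 TPM in area 1 and 390 in area 2, led by the globin gene Hba-a2 (2178 and 163 TPM). Of the 6 tested, 5 were higher in area 1, beside 24.0% of all genes, and 1 did not pass. Tfrc and both ferritin chains were higher in area 2. Mural cell markers summed to 45.7 and 78.1 TPM, with 2 of 7 higher in area 1 and 5 in area 2. Purkinje cell markers summed to 245 and 357 TPM, with 1 of 6 higher in area 1 and 3 in area 2. Their medians were 5.89 and 5.85 TPM, so the sums differed through a few genes. Endothelial markers summed to 268 and 213 TPM, with 7 of 11 higher in area 1 and 0 in area 2. Microglial markers summed to 151 and 126 TPM, with 6 of 12 higher in area 1 and 3 in area 2. The background for these counts is 24.0% and 23.7% of all genes. Of the 5 choroid plexus markers, 1 was detected in both areas, at 3.29 and 2.95 TPM, and Ttr, Folr1 and Kl had 0 counts in both. The part of these cell types in the differences of the metal genes was not tested.

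**Figure D4:**
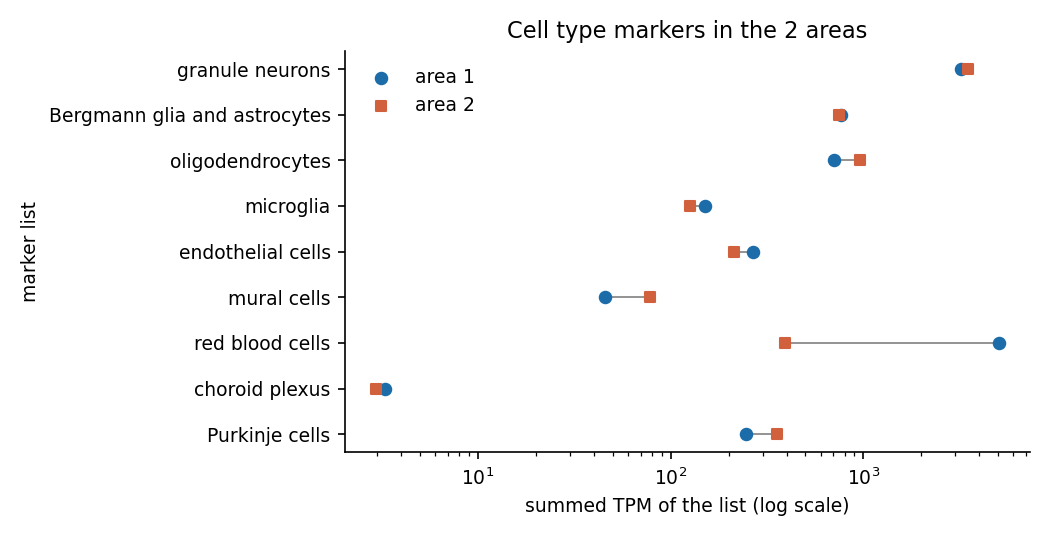
Summed TPM of each marker list (log scale) in area 1 and area 2. The red blood cell list shows the widest gap, 5040 against 390 TPM, and the granule neuron list stands at 3223 and 3499 TPM.

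Around these genes, 94 other genes of metal handling were listed in 6 groups, and 69 of them were detected in both areas. Of the 79 with enough reads to test, 18 were higher in area 1, 25 were higher in area 2 and 36 did not pass, beside 24.0%, 23.7% and a called share of 47.6% in all over the 16636 genes. These shares are the background for the counts of each group below. Iron storage and sensing genes were mostly present: 6 of 7 were detected. Fbxl5, which senses iron and directs the degradation of Ireb2, was at 77.5 ± 3.42 TPM, and Ncoa4, the receptor that takes ferritin to the lysosome, was at 25.5 ± 1.42. The iron chaperones Pcbp2 and Pcbp1 were at 93.7 ± 2.06 and 60.0 ± 1.29 TPM. Fbxl5, Ncoa4 and Pcbp4 (35.7 ± 4.43 TPM) were higher in area 2, and the other 3 tested did not pass.

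Iron transport genes were low or not detected. Of the 20 listed, 4 were detected in both areas, none reached 20 TPM, and 7 had 0 counts in both: Steap1, Hfe2, Hamp, Hamp2, Hephl1, Lcn2 and Scara5. Hamp encodes hepcidin, the liver hormone that removes ferroportin from the cell surface. Of 9 tested, 3 were higher in area 1, 2 were higher in area 2 and 4 did not pass.

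All 18 genes of mitochondrial iron and iron-sulfur cluster assembly were detected in both areas, at a median of 42.2 TPM. The highest were Bola3 (259.6 ± 6.12 TPM), the scaffold Iscu (173 ± 2.70), Isca1 (136 ± 4.08) and Isca2 (128 ± 0.0495). In this group 13 of the 18 did not pass, 2 were higher in area 1 and 3 in area 2. Of 18 haem genes 16 were detected, with Hmox2, the constitutive haem oxygenase, at 84.2 ± 4.36 TPM and Alas1, which starts haem synthesis, at 23.8 ± 1.80. In that group 6 were higher in area 1, 5 were higher in area 2 and 7 did not pass, beside a called share of 47.6% of all genes.

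Of 27 zinc and copper genes 22 were detected, and Mt4 and Slc39a4 had 0 counts in both areas. The copper chaperones Cox17 and Atox1 stood at 575 ± 9.12 and 242 ± 2.87 TPM. Mtf1 was at 16.3 TPM in area 1 and 25.3 in area 2, with a log2 ratio of read shares of 0.70 (adjusted p = 9.26e-15, exact binomial test), in the direction opposite to Mt1 and Mt2. In the group, 4 genes were higher in area 1, 11 were higher in area 2 and 9 did not pass, beside 24.0% and 23.7% of all genes in these directions. Of the 6 other mRNAs listed for an iron responsive element, 5 were higher in area 1 and 1 in area 2, beside 24.0% and 23.7% of all genes. Of these 6, 4 had no match to the pattern searched above. Alas2, 1 of the 5, is a gene of red cell precursors and had a log2 ratio of read shares of -2.74. It is itself 1 of the red blood cell markers, whose sum was lower in area 2. The part of red cells in its difference was not tested. Cdc42bpa, a kinase, stood at 146 and 124 TPM in area 1 and area 2.

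**Figure D5:**
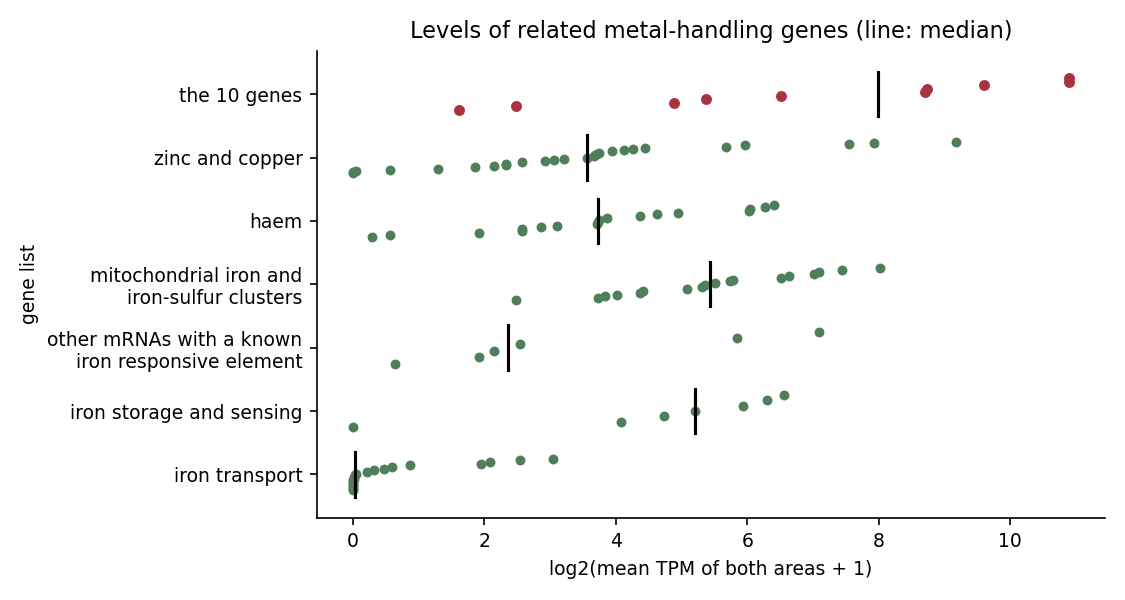
Mean level of each related gene as log2(mean TPM + 1), by list, with a line at each list's median. The mitochondrial iron list has a median of 42.2 TPM and no gene at 0, while the iron transport list has a median of 0.025 TPM and 7 genes at 0 counts.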

How the data were processed

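Both libraries are total RNA of laser-captured areas. Reads were assigned to GENCODE M4 genes on mm10, per the deposited notes. The aligner, counter, filters and strand setting were not given in the sources used here. The deposited expected counts are estimated reads per gene, and the deposited TPM values were scaled by the authors to transcripts per 1e6 with a length correction. As score values, the deposited tables also give a posterior standard deviation of the count and bounds on TPM, and a deposited percent column holds each transcript's share of its gene, per the file headers.

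The members and lists were chosen with earlier results of these data known. Names and coordinates came from GENCODE M21 (GRCm38), which named 42462 of 43346 Ensembl rows. Expected counts were rounded and tested per gene with an exact binomial test (SciPy 1.17.1, Python 3.11.15, pandas 2.3.3) where the summed count was at least 10, after tests on simulated data. Close copies were found with BLAST 2.17.0. Named genes are all members, related genes with a mean of at least 20 TPM or 0 counts in both areas, and the first 3 markers of a list. From these, examples are printed, and some named genes are not reported here. Alternatives were the count filter, library totals, median-of-ratios scaling, counts divided by 10, posterior mean TPM, counts without length correction, stricter detection and leaving out an area. The transcript with most reads alone was added after seeing the data. The binomial test holds no term for spread between replicates, so p-values measure only counting error between these libraries. Replicates are also not stated to be separate animals. A count of 0 allows up to 3 counts.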

Additional observations from a re-analysis of the deposited data

How the results depend on the processing

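With counts divided by 10, 2 of the 10 genes differed beyond counting error, 2 higher in area 2 and 0 higher in area 1. Slc40a1 no longer passed without the count filter (adjusted p = 0.0524, exact binomial test). With mitochondrial and globin genes out of the totals, 7 genes passed, and Mt3 (adjusted p = 0.0636) and Slc40a1 (adjusted p = 0.0579) did not in the exact binomial test. From expected counts with no length correction, the Fth1 to Ftl1 ratio was 2.16, the Ireb2 to Aco1 ratio 13.3, and the Trf to Tfrc ratio 0.859, which reversed their order. From the transcript with most reads alone, the ratios were 1.64 for Trf to Tfrc, 16.1 for Tfrc to Slc40a1 and 9.47 for Ireb2 to Aco1, and the mean levels were 42.0 TPM for Trf, 25.7 for Tfrc and 3.09 for Aco1. With the posterior mean TPM the Tfrc to Slc40a1 ratio was 11.8, Slc40a1 stood at 3.50 TPM and Aco1 at 5.14. The construction of these settings, which change the length or the transcripts counted, sets the ratios, and the cause of the posterior mean difference was not tested. No paired analysis was possible because both libraries belong to 1 group.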

Other observations

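A pair of related genes was picked out after their values were seen, and lies outside the rule for named genes. Hmox1, the inducible haem oxygenase, had 1 read in area 1 and 23 in area 2 (0.04 and 0.92 TPM, adjusted p = 7.84e-06, exact binomial test). Slc30a10, which encodes a manganese exporter, had 12.8 and 80.0 reads (0.13 and 0.84 TPM, adjusted p = 3.19e-12, exact binomial test). Neither reached 1 TPM in either area. Cybrd1, a related gene of iron transport, went the other way, with 28 reads in area 1 and 0 in area 2 (0.31 and 0 TPM). It too was picked after its values were seen.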
